A study of Arabidopsis thaliana with 36 samples.

Results

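Transcripts of DELAY OF GERMINATION 1 (DOG1), of its 4 DOG1-LIKE genes (DOGL1, DOGL2, DOGL3 and DOGL4) and of RDO5, MFT and HUB1 were followed in Arabidopsis seeds that lack the histone variant H3.3 (h3.3ko) and in wild type seeds (Col). The 8 genes were chosen by locus identifier, for their known part in seed dormancy or their place in the DOG1 family, out of 27655 genes in the table. All 8 were found, and all 8 passed the filter on low values with which 19052 genes were tested (at least 1 TPM in at least 3 libraries). Seed RNA was sequenced at 6 time points in each genotype with 3 biological replicates per group, which gives 12 groups and 36 libraries. The time points were the mature dry seed (MS), cold stratification at 4 °C for 12, 24 or 48 h (S12h, S24h, S48h), and a further 12 or 24 h under germination conditions after stratification (G12h, G24h). The h3.3ko seeds combined htr4 and htr5 alleles made by CRISPR-Cas9 with a T-DNA insertion in HTR8. They came from mutant parents heterozygous for a rescuing pHTR5::HTR5 transgene and were picked as the seeds without its mCherry signal, so the mother plant and its seed coat carried the rescue. Seeds of both genotypes had been stored for 3 months after harvest. By the study's account germination was complete at G24h in Col only, so genotype and developmental progress cannot be told apart at that time point. The study also describes the transcriptome of h3.3ko as less dynamic during imbibition. The same limit can therefore hold at the earlier time points of imbibition.

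Seed dormancy is the temporary block that keeps a ripe seed from germinating under favourable conditions. DOG1 is its main quantitative regulator in Arabidopsis: the protein builds up during seed maturation, binds the phosphatases AHG1 and AHG3 and thereby strengthens abscisic acid signalling, and its transcript is normally lost during imbibition. RDO5 is a protein of the PP2C phosphatase family that promotes dormancy, MFT belongs to the phosphatidylethanolamine-binding (PEBP) family with FT and regulates germination through abscisic acid signalling, and HUB1 is the histone H2B ubiquitin ligase whose loss reduces dormancy and DOG1 expression.

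Levels are in TPM, the share of a library's transcripts scaled to a fixed total, which by the steps between the values had been divided by the whole gene span, introns included. Each fold change is a difference of means of log2(TPM + 1), so that changes of genes near 0 TPM come out too small, and a gene was called where limma's Benjamini-Hochberg adjusted p, over all genes tested, was under 0.05 and the log2 fold change was above 1 in size. The libraries held 17.0 to 19.3 M recovered reads (M for 1000000). The H3.3 genes HTR4, HTR5 and HTR8 were called lower in h3.3ko in 16 of 18 tests, and their summed level was 175.4 to 350 TPM in h3.3ko libraries and 545.3 to 3404 TPM in Col libraries. HTR5 was not called at MS (log2 fold change 0.04) or S48h (-0.86), and an edited gene can still be transcribed. Genes of 9 seed storage proteins took 34.1% of the summed TPM of h3.3ko and 10.2% of that of Col at MS. At G24h they took 17.2% of the summed TPM of h3.3ko and 0.0323% of that of Col. The summed level of 3 endosperm markers (EPR1, EXPA2 and MAN7) was lower in h3.3ko at every time point, with 1698 ± 274 TPM in h3.3ko and 9465 ± 1100 TPM in Col at MS and with 326 ± 20.0 TPM in h3.3ko and 2007 ± 342 TPM in Col at G24h (SD, n = 3 each). EPR1 made up most of the sum at MS in both genotypes and was called lower in h3.3ko at all 6 time points, while EXPA2 made up most of it at G24h. Of the 18 tests on the 3 markers 10 were called lower and 5 higher, with EXPA2, which had no read in the Col libraries at MS and S12h, called higher at these time points and MAN7 called higher from MS to S24h. The 4 mature seed markers OLEO1, OLEO2, EM1 and EM6 summed to 47291 ± 1688 TPM in h3.3ko and 59370 ± 1720 TPM in Col at MS, and to 16132 ± 817 TPM in h3.3ko and 339 ± 44.5 TPM in Col at G24h. The 3 green seedling markers RBCS1A, LHCB1.1 and CAB3 summed to 262.5 ± 13.9 TPM in h3.3ko and 13.6 ± 0.878 TPM in Col at MS. At G24h they summed to 596.5 ± 79.9 TPM in h3.3ko and 2729.6 ± 175 TPM in Col. Of their 18 tests 7 were called higher in h3.3ko and 4 lower. Calls that changed in a fit without the storage protein genes are given below. The part of the marker shifts in the results was not tested. In whole seeds, fewer cells of a type and less RNA per cell cannot be told apart.

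The family lies at 2 places in the genome (coordinates from the RefSeq annotation, build TAIR10.1). DOG1 (AT5G45830) is on chromosome 5 (chr5:18589418-18591506, minus strand), with 3 exons and 6 annotated transcripts. The 4 DOGL genes stand together on chromosome 4 within 19.835 kb, in the order DOGL4 (AT4G18650, chr4:10263969-10265439, minus strand), DOGL1 (AT4G18660, chr4:10273480-10274872), DOGL2 (AT4G18680, chr4:10281033-10281740) and DOGL3 (AT4G18690, chr4:10282762-10283803), the last 3 of them on the plus strand. The coding sequences of DOGL2 and DOGL3 were 82.9% identical and shared a run of 35 bases, so their reads could be split between them and their values are less certain. Every other pair in the family was 58.5% to 68.4% identical, with shared runs of at most 18 bases. RDO5 (AT4G11040, chr4:6745100-6746944, plus strand), MFT (AT1G18100, chr1:6227217-6230194, minus strand) and HUB1 (AT2G44950, chr2:18542175-18548652, minus strand) lie elsewhere. The libraries were not made strand-specific, so reads of a gene and of an antisense partner cannot be told apart. This touches DOG1, which is known to have an antisense transcript, and MFT, of whose span 606 bases overlap AT1G18090 and 550 bases overlap the noncoding gene AT1G05383, both on the other strand.

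Because the genes of the family were called higher together in h3.3ko at the 2 last time points, the 250 bases before the annotated start of DOG1, of the DOGL genes whose annotated start is not the start codon, and of MFT are given here, written 5′ to 3′ on the strand of the gene. Capitals mark the RY repeat (CATGCA, the motif of B3 factors such as ABI3) and the core of the ABA-responsive element (ACGTG, the motif of bZIP factors such as ABI5), searched on both strands, so that TGCATG and CACGT are the same motifs read on the other strand.
DOG1, chr5:18591507-18591756 (minus strand): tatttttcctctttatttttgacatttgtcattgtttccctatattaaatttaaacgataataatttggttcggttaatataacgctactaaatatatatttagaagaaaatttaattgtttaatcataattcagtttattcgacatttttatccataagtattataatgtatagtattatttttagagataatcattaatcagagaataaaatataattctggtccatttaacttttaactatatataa
DOGL1, chr4:10273230-10273479 (plus strand): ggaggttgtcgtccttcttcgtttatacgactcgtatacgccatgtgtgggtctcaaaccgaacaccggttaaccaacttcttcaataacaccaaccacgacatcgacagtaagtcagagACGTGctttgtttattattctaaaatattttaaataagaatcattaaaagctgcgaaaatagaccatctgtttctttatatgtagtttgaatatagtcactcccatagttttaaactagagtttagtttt
DOGL3, chr4:10282512-10282761 (plus strand): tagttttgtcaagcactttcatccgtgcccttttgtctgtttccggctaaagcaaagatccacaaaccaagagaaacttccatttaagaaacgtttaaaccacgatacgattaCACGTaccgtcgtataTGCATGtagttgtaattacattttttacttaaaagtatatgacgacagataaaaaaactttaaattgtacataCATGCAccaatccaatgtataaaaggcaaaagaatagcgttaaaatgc
DOGL4, chr4:10265440-10265689 (minus strand): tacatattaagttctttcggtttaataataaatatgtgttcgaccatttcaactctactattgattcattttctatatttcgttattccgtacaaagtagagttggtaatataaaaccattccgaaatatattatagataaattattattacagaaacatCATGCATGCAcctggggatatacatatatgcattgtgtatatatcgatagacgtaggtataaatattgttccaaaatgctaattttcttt
MFT, chr1:6230195-6230444 (minus strand): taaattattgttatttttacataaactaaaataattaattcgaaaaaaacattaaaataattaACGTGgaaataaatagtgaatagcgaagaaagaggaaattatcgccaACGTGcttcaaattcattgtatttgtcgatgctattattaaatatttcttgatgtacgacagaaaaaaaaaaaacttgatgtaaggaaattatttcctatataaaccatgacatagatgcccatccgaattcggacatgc
The RY repeat was present in 8.432% of the 27443 windows of this length upstream of annotated genes, the ABRE core in 22.91% and the full G-box CACGTG, which contains the core, in 6.486%. DOGL4 held 3 overlapping RY repeats, first bases at -90, -88 and -86 from the gene start. DOGL3 held RY repeats at -121 and -48 and an ABRE core at -137, DOGL1 had an ABRE core at -130 and MFT had ABRE cores at -187 and -140. The window of DOGL2, not shown because its annotated gene starts at the start codon, held 2 RY repeats and 1 ABRE core. The DOG1 window held neither motif, nor did the windows of RDO5 and HUB1, which are not shown. A match is a string of letters only, and binding was not measured.

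**Figure D1:**
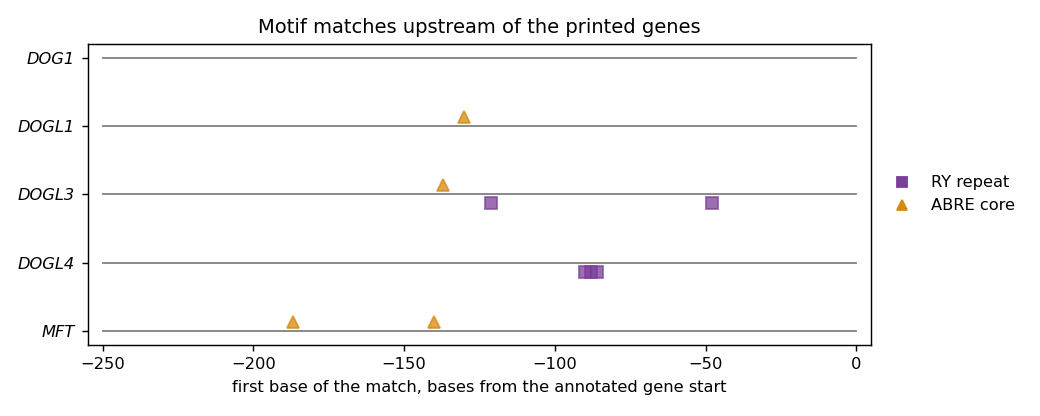
Positions of motif matches in the 250 bases upstream of DOG1, DOGL1, DOGL3, DOGL4 and MFT. The x axis gives the first base of each match in bases from the annotated gene start, squares are RY repeats and triangles are ABRE cores. DOGL4 carries its 3 RY repeats at -90 to -86, and the DOG1 line is empty.

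Most of the 8 genes were higher in h3.3ko at the late time points and several were lower at the early ones. In the mature seed 1 of the 8 genes was called higher in h3.3ko and 3 were called lower, whereas at G12h and at G24h 7 of the 8 were called higher and none lower. Over the 48 tests, 24 were called higher in h3.3ko, 8 lower and 16 neither. Among all genes tested 12.2% of such tests were called higher and 17.7% lower. The median log2 fold change of the 8 genes was -0.62 at MS, where that of all genes tested was 0, -0.91 at S12h (all genes -0.09) and 0.23 at S24h (all genes 0). It was 1.32 at S48h (all genes 0), 2.36 at G12h (all genes -0.16) and 3.12 at G24h (all genes -0.39). Among all genes, the share called higher in h3.3ko was 8.55% and the share called lower 10.6% at MS. These shares were 10.9% higher and 14.6% lower at S12h, where 3 members were called higher and 4 lower, and 16.1% each way at S24h, where 2 were called higher and 1 lower. They were 17.8% each way at S48h, where 4 members were called higher and none lower. They were 10.2% higher and 17.6% lower at G12h and 9.63% higher and 29.4% lower at G24h. HUB1 was the member that was never called higher.

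**Figure D2:**
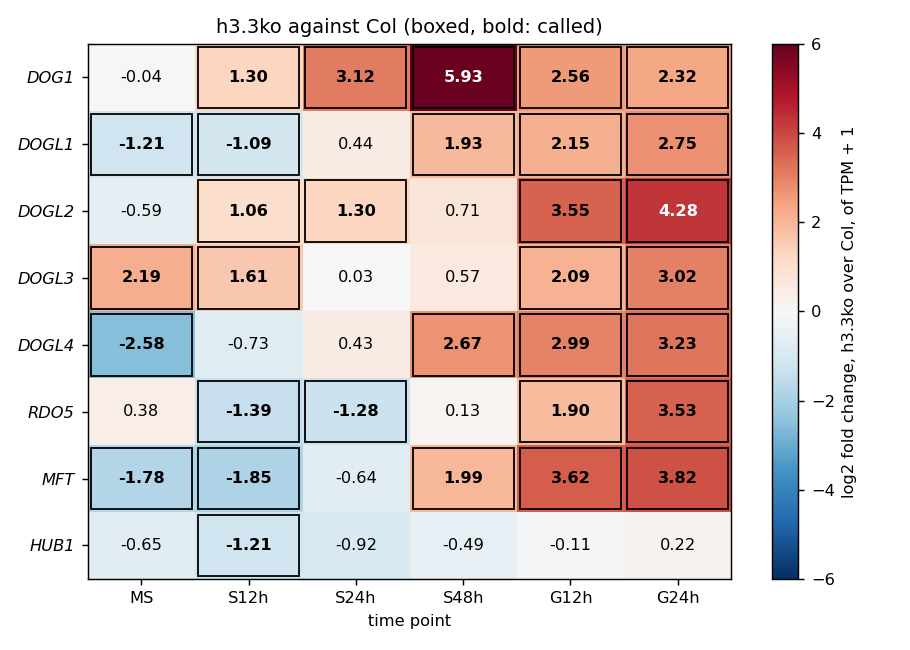
Log2 fold change of h3.3ko over Col for the 8 genes (rows) at the 6 time points (columns), on the log2(TPM + 1) scale, with called values boxed and in bold. At G12h and G24h 7 of the 8 genes are boxed and positive, and the value furthest from 0 is that of DOG1 at S48h (5.93).

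DOG1 transcripts overlapped between the genotypes in the dry seed and were called higher in h3.3ko at every later time point. At MS DOG1 was at 37.1, 36.8 and 33.5 TPM in the 3 h3.3ko libraries, against 36.1, 36.6 and 37.7 TPM in Col, and the groups overlapped (log2 fold change -0.04 ± 0.10 SE, adjusted p = 0.77, limma). Already at S12h it had 91.7, 86.5 and 89.3 TPM in h3.3ko and 37.8, 34.6 and 34.4 TPM in Col. At S24h the h3.3ko libraries held 157, 151 and 146 TPM, which was the highest DOG1 level of the 12 groups, while Col libraries held 17.7, 17.0 and 15.0 TPM. On the log2(TPM + 1) scale the difference was widest at S48h, with 127, 113 and 125 TPM in h3.3ko and 1.31, 1.23 and 0.584 TPM in Col. The Col values rest on 10 to 23 reads per library and those of h3.3ko on 2232 to 2551. The ratio of the means was 9.15 at S24h and 117 at S48h, and the log2 fold change at S48h was 5.93 ± 0.10 (SE, adjusted p = 2.79e-29, limma).

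Under germination conditions DOG1 was low in h3.3ko as well, and lower still in Col. At G12h it was at 5.54, 4.42 and 5.49 TPM in h3.3ko, against 0, 0.0567 and 0.0590 TPM in Col. At G24h h3.3ko libraries held 5.17, 3.95 and 3.78 TPM and Col libraries 0, 0.0581 and 0.113 TPM. The Col libraries had 0 to 2 reads at these time points, under the level of 3 reads, and the h3.3ko libraries 77 to 108. The fitted log2 fold changes of 2.56 at G12h and 2.32 at G24h (both ± 0.10 SE) are limited by the pseudocount of 1 and are no measure of the ratio. In the order of the 12 group means, h3.3ko at S24h, S48h and S12h took the first 3 places, each apart from the next, and Col at MS, h3.3ko at MS and Col at S12h followed, each overlapping the next in this order. Col at G24h and G12h came last and overlapped. The order over time depends on the scaling. From MS to S12h the log2 change of DOG1 in h3.3ko was 1.29 with TPM, 0.33 under median-of-ratios scaling and 0.64 under quantile normalization. From MS to S48h these values were 1.74, 0.19 and 0.55. In h3.3ko only the TPM values of these were called. From MS to S12h in Col the change was -0.05 with TPM, -1.15 under median-of-ratios scaling and -1.08 under quantile normalization.

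All 4 DOG1-like genes were called higher in h3.3ko at G12h and G24h, as DOG1 was, while at S12h DOGL2 and DOGL3 were called higher, DOGL1 lower and DOGL4 neither. DOGL1 was called lower in h3.3ko at MS, with 16.0, 15.4 and 15.2 TPM in h3.3ko and 36.1, 39.9 and 35.7 TPM in Col (log2 fold change -1.21 ± 0.13). At S12h it had 112, 96.8 and 84.9 TPM in h3.3ko, against 235, 198 and 194 TPM in Col (-1.09 ± 0.13). Both calls depend on how the libraries are scaled: without the 9 storage protein genes the values were -0.79 at MS and -0.74 at S12h and neither was called. At S48h the order had turned, with 243, 244 and 165 TPM in h3.3ko and 61.3, 56.1 and 49.5 TPM in Col (1.93 ± 0.13, adjusted p = 1.17e-14, limma). DOGL1 was at 6.24, 5.77 and 6.40 TPM in h3.3ko at G24h and at 0.0862, 0 and 0.0849 TPM in Col, where 0 or 1 read per library was left. Its highest group mean in h3.3ko was that of S48h (217 ± 45.4 TPM, SD, n = 3) and in Col that of S12h (209 ± 22.5 TPM), and these 2 groups overlapped.

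DOGL2 was the DOGL gene with the highest level in the mature seed, with 247 ± 11.1 TPM in h3.3ko and 371 ± 14.7 TPM in Col (SD, n = 3 each). Its annotated gene starts at the start codon and holds no untranslated sequence. The 2 groups did not overlap at MS, but the log2 fold change of -0.59 was not called. At S12h DOGL2 had 246, 231 and 234 TPM in h3.3ko and 126, 107 and 107 TPM in Col, so that it was called higher in h3.3ko (1.06 ± 0.15). It stayed called at S24h (1.30) and was not called at S48h (0.71), where h3.3ko libraries ranged from 118 to 156 TPM and Col libraries from 70.6 to 97.8 TPM. At G12h it was at 31.2, 27.9 and 27.2 TPM in h3.3ko, against 1.20, 1.17 and 2.44 TPM in Col. At G24h h3.3ko libraries still had 21.7, 23.5 and 20.9 TPM, whereas Col libraries had 0, 0 and 0.668 TPM. Those 3 Col libraries held 0 to 4 reads of DOGL2. The G24h log2 fold change of 4.28 ± 0.15 was the largest of any member at that time point (adjusted p = 8.37e-22, limma).

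DOGL3 was the only member called higher in h3.3ko in the dry seed. It had 17.2, 16.9 and 16.0 TPM in h3.3ko and 3.12, 2.93 and 2.58 TPM in Col at MS (log2 fold change 2.19 ± 0.20, adjusted p = 2.74e-11, limma). The groups did not overlap at S12h either, and the gene was called higher in h3.3ko (1.61 ± 0.20). From MS to S48h the gene was called higher within both genotypes, as were 9713 of 19052 genes tested in h3.3ko and 9180 in Col. At S24h it was at 31.0, 37.9 and 28.1 TPM in h3.3ko and 31.5, 32.1 and 30.3 TPM in Col, and the groups overlapped. At S48h it reached its highest level in each genotype, with 152 ± 19.6 TPM in h3.3ko and 102 ± 14.6 TPM in Col, a difference that was not called (0.57). At G12h DOGL3 had 8.62, 10.3 and 7.75 TPM in h3.3ko and 2.79, 1.02 and 0.591 TPM in Col, and the difference was called again (2.09 ± 0.20). At G24h it was called as well, with 10.1, 8.85 and 6.51 TPM in h3.3ko and 0.230, 0.117 and 0.113 TPM in Col, where 1 or 2 reads per library were left.

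DOGL4, described in the RefSeq annotation as a maternally expressed imprinted gene, was called lower in h3.3ko in the dry seed and higher from S48h onward. At MS it was at 8.49, 9.06 and 6.55 TPM in h3.3ko, against 50.5, 51.9 and 55.2 TPM in Col (log2 fold change -2.58 ± 0.15, adjusted p = 5.20e-16, limma). The ratio of Col to h3.3ko was 6.54. At S12h and S24h the groups stood apart without a call, in opposite directions (-0.73 and 0.43). At S48h DOGL4 held 44.1, 41.5 and 50.4 TPM in h3.3ko and 6.46, 8.38 and 4.40 TPM in Col. DOGL4 was also the only member of the family called higher in h3.3ko at G24h than in the h3.3ko dry seed. Among all genes tested 9604 of 19052 were called higher in that comparison, HUB1 outside the family among them (1.15). At G24h DOGL4 had 47.9, 45.9 and 45.5 TPM in h3.3ko, against 4.24, 4.45 and 3.53 TPM in Col, a ratio of the means of 11.4 (log2 fold change 3.23 ± 0.15). Beside these values, the 3 endosperm markers did not move one way within h3.3ko: EPR1 averaged 9.85 TPM at G24h and 1666 TPM at MS, EXPA2 224 TPM at G24h and 6.75 TPM at MS, and MAN7 92.0 TPM at G24h and 25.4 TPM at MS.

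**Figure D3:**
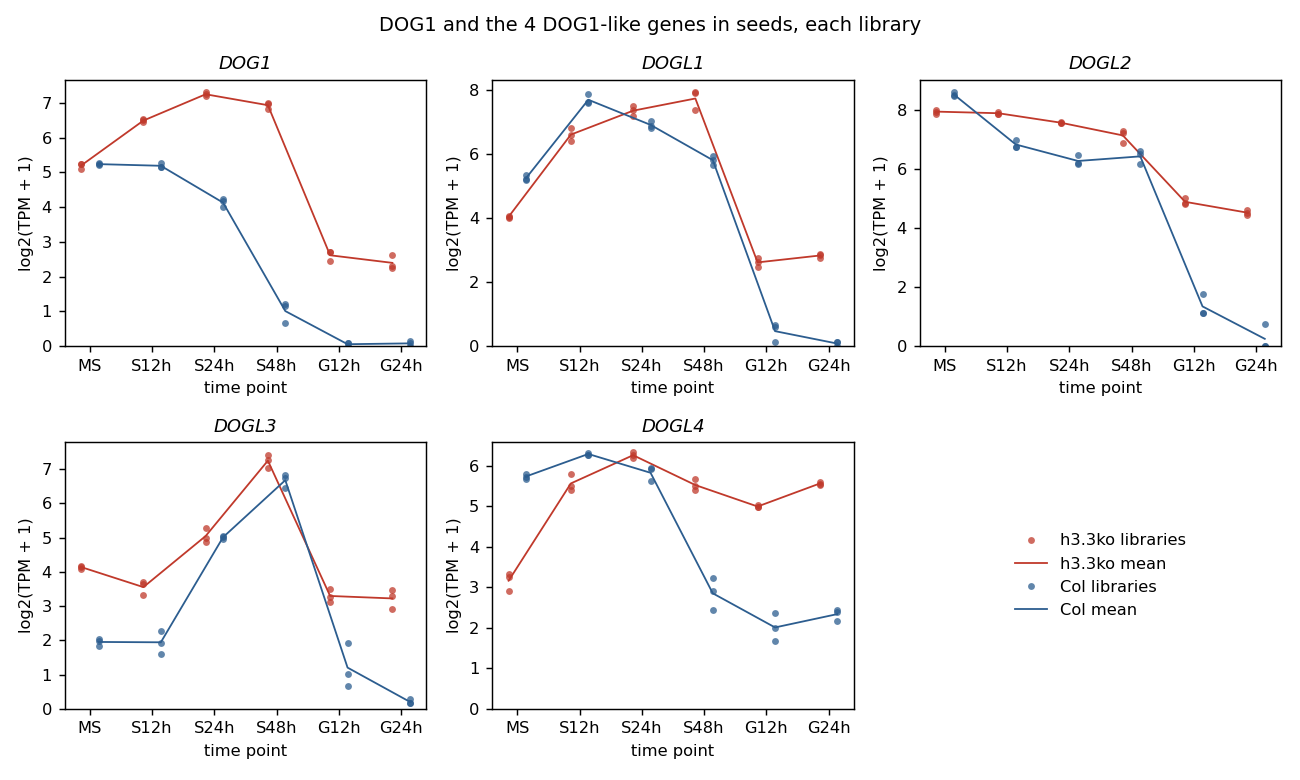
Levels of DOG1, DOGL1, DOGL2, DOGL3 and DOGL4 as log2(TPM + 1) (y axis) at the 6 time points (x axis) in h3.3ko (red) and Col (blue). Each point is 1 library and the lines join the means of 3 libraries. DOG1 reaches 157, 151 and 146 TPM in h3.3ko at S24h, and all 5 genes are higher in h3.3ko at G12h and G24h.

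RDO5 reached the highest group mean of the 8 genes, at S24h in Col. Counted per kilobase of exon, so that the genes can be set side by side, it had 809 ± 37.8 reads per M library reads in h3.3ko and 1740 ± 10.7 in Col at S24h. The highest group mean of DOG1 on this scale was 94.1 ± 2.66 (h3.3ko at S24h). At MS DOGL2 stood above RDO5, with 160 against 140 in h3.3ko and 239 against 106 in Col. In Col at G24h HUB1 (7.40) stood above RDO5 (5.60). At MS RDO5 was at 163, 166 and 149 TPM in h3.3ko and 116, 125 and 126 TPM in Col, a difference that was not called (log2 fold change 0.38). During early imbibition RDO5 was called lower in h3.3ko. At S12h it had 895, 736 and 639 TPM in h3.3ko, against 2114, 1983 and 1824 TPM in Col (-1.39 ± 0.11). At S24h it had 1178, 1212 and 1089 TPM in h3.3ko, against 2830, 2746 and 2881 TPM in Col (-1.28 ± 0.11). Under quantile normalization the S12h value was -0.88 and was not called. At S48h the groups overlapped, with 1452, 1382 and 1009 TPM in h3.3ko and 1280, 1126 and 1072 TPM in Col. At G24h it had 130, 115 and 112 TPM in h3.3ko and 9.30, 9.21 and 9.48 TPM in Col (3.53 ± 0.11, adjusted p = 8.78e-24, limma).

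MFT, like DOGL4, was called lower in h3.3ko at first and higher from S48h onward. At MS it was at 13.8, 11.3 and 14.2 TPM in h3.3ko, against 45.6, 48.5 and 47.4 TPM in Col (log2 fold change -1.78 ± 0.09), and at S12h it was at 8.27, 10.3 and 10.4 TPM in h3.3ko, against 37.7, 35.96 and 38.3 TPM in Col (-1.85 ± 0.09). At S24h the groups were still apart, with 22.3, 23.2 and 22.2 TPM in h3.3ko and 35.8, 35.0 and 36.4 TPM in Col, but the value of -0.64 was not called. At S48h MFT reached 62.7, 67.3 and 78.1 TPM in h3.3ko, the highest of its 12 group means, against 17.2, 18.8 and 14.3 TPM in Col (1.99 ± 0.09, adjusted p = 4.22e-19, limma). The PEBP gene thus changed sides between S24h and S48h. At G12h it had 18.3, 17.8 and 15.8 TPM in h3.3ko and 0.570, 0.438 and 0.455 TPM in Col. At G24h it had 16.2, 15.0 and 15.6 TPM in h3.3ko and 0.161, 0.204 and 0.159 TPM in Col (3.82 ± 0.09, adjusted p = 1.28e-26, limma), where 4 or 5 reads per library were left. Within h3.3ko the change from MS to G24h was not called (0.24), and its direction depends on the scaling (-1.10 under median-of-ratios scaling). Col at G24h was the lowest of the 12 groups.

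HUB1 was called at 1 of the 6 time points. It was called lower in h3.3ko at S12h, with 10.1, 8.61 and 11.0 TPM in h3.3ko and 23.7, 23.9 and 24.9 TPM in Col (log2 fold change -1.21 ± 0.10, adjusted p = 1.94e-12, limma). The S12h value was -0.97 under median-of-ratios scaling, -0.84 under quantile normalization and -0.90 without the storage protein genes, and none of these was called. At S24h it had 15.2, 13.8 and 13.4 TPM in h3.3ko, against 28.4, 23.8 and 31.2 TPM in Col, which came just short of the call (-0.92), and without Col replicate 2 of S24h the value was -1.02 and was called. At G12h the groups overlapped, with 11.3, 9.82 and 10.7 TPM in h3.3ko and 11.5, 11.9 and 11.2 TPM in Col. At G24h it had 11.0, 12.3 and 9.90 TPM in h3.3ko and 9.21, 9.10 and 9.73 TPM in Col (0.22).

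**Figure D4:**
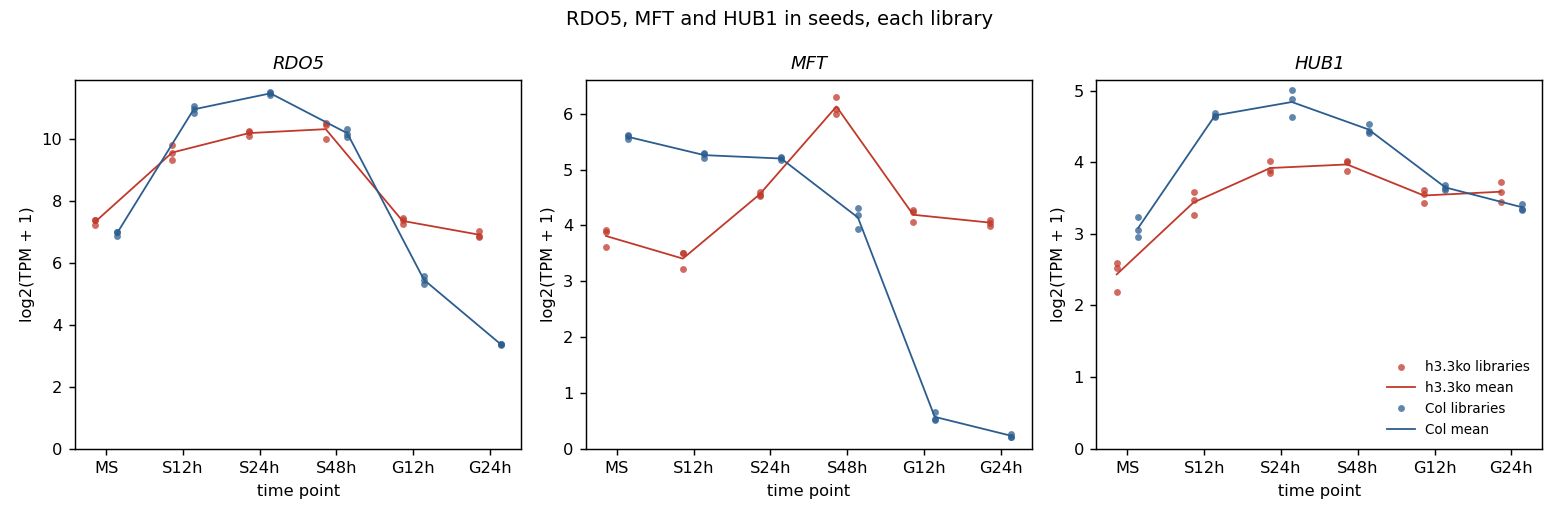
Levels of RDO5, MFT and HUB1 as log2(TPM + 1) (y axis) at the 6 time points (x axis) in h3.3ko (red) and Col (blue), with 1 point per library and lines through the means of 3 libraries. RDO5 is lower in h3.3ko at S12h and S24h and higher at G24h, MFT crosses between S24h and S48h, and the HUB1 groups overlap at G12h.

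Within each genotype the change since the mature seed was set against the median gene, because the TPM of the median gene tested moved as well. Its log2 change since MS was, for h3.3ko, 0.48 at S12h, 1.03 at S48h and 1.01 at G24h. For Col it was 0.58 at S12h, 0.92 at S48h and 1.39 at G24h. Relative to it, DOG1 changed at S48h by 0.71 in h3.3ko and -5.15 in Col, and at G24h by -3.82 in h3.3ko and -6.56 in Col. DOGL4 changed by 1.39 in h3.3ko and -4.80 in Col at G24h. MFT changed at S48h by 1.29 in h3.3ko and -2.37 in Col, and at G24h by -0.77 in h3.3ko and -6.75 in Col. On the TPM scale all members but HUB1 were called lower in Col at G24h than at MS (9.42% of all genes), and DOG1, DOGL1 and DOGL2 were in h3.3ko (3.52% of all genes). These counts over time depend on the scaling: over the 3 intervals in h3.3ko 14 tests were called higher and 3 lower (43.2% and 2.51% of those on all genes), against 7 higher and 10 lower under median-of-ratios scaling.

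The difference between the 2 courses was tested as the genotype-by-time interaction, in which a shift shared by both genotypes cancels. Of 24 such tests on the members 14 were called higher in h3.3ko and 2 lower, while 13.5% of those on all genes were called higher and 18.8% lower. At S48h against MS the interaction was 5.97 ± 0.15 for DOG1, 5.25 ± 0.21 for DOGL4, 3.77 ± 0.13 for MFT, 3.14 ± 0.18 for DOGL1 and 1.30 ± 0.22 for DOGL2 (log2 ± SE). DOGL3, whose log2 increase was smaller in h3.3ko from a higher level at MS, had -1.62 ± 0.28. At G24h against MS it was 5.81 ± 0.21 for DOGL4, 5.60 ± 0.13 for MFT, 4.87 ± 0.22 for DOGL2, 3.96 ± 0.18 for DOGL1, 3.15 ± 0.15 for RDO5 and 2.36 ± 0.15 for DOG1. Where Col was near 0 TPM at G24h, as for DOG1 with 0 to 2 reads per library, the pseudocount of 1 limits the value. The order of these values is therefore no order of the ratios. At S12h against MS DOGL4 (1.85), DOGL2 (1.65) and DOG1 (1.34) were called higher in h3.3ko and RDO5 lower (-1.78). With TPM the courses of HUB1 were not called different at any of the 3 intervals. Its value at G24h against MS depends on the scaling: 0.87 with TPM, 1.07 under median-of-ratios scaling and 1.26 under quantile normalization, which pass the threshold of 1.

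**Figure D5:**
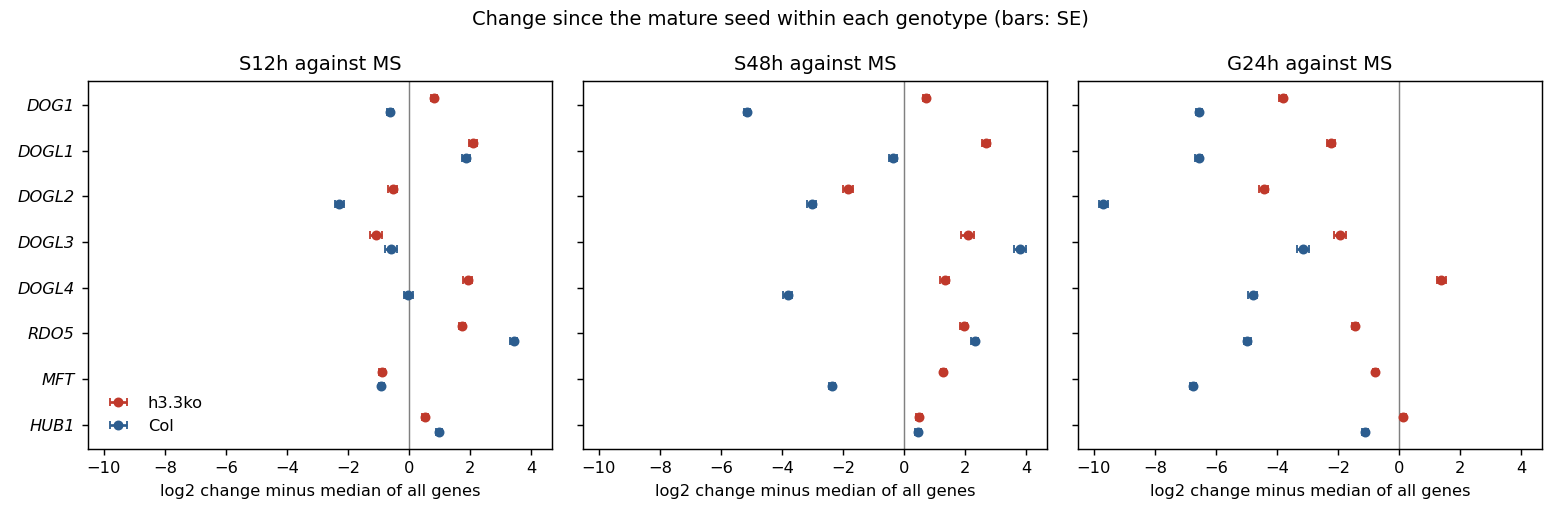
Log2 change of the 8 genes since the mature seed at S12h, S48h and G24h (3 panels), after subtraction of the median of all genes tested (x axis), in h3.3ko (red) and Col (blue), with bars of 1 SE. At S48h DOG1 stands at 0.71 in h3.3ko and at -5.15 in Col, and at G24h DOGL4 stands at 1.39 in h3.3ko and at -4.80 in Col. Changes to levels near 0 TPM are limited by the pseudocount of 1.

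Across the 12 group means, members resembled each other to different degrees, as Pearson's r of log2(TPM + 1), given as a description because the groups share libraries, scaling and a common course of imbibition. The pair with the highest r was DOGL1 and RDO5 (r = 0.93). DOG1 had r = 0.84 with DOGL2 and 0.81 with DOGL1. Its r with DOGL4 was 0.24 over the 6 h3.3ko groups and 0.99 over the 6 Col groups, and that of MFT with DOGL2 was 0.01 over the h3.3ko groups and 0.98 over the Col groups. HUB1 had r = -0.02 with DOG1. Among 16251 genes, the patterns most like that of DOG1 were those of AT5G03795 (r = 0.98), AT1G71950 (r = 0.98) and AT1G05400 (r = 0.97). The gene closest to MFT was AT3G25160 (r = 0.97), then the pectin methylesterase gene PME31 (r = 0.94). Closest to DOGL1 was the cis-prenyltransferase gene cPT1 (r = 0.96), to DOGL2 the bZIP gene VIP1 (r = 0.97), to DOGL3 AT1G11210 (r = 0.92) and to DOGL4 the NAC factor gene NTL9 (r = 0.95).

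Other genes that act in dormancy with or upstream of DOG1 included some that changed and some that were never called. Of 19 such genes 18 were tested, and of their 108 tests 21 were called higher in h3.3ko, 6 lower and 81 neither, beside the 12.2% higher and 17.7% lower among all genes. The median log2 fold change of the list was -0.12 at MS, 0.33 at S48h and 0.39 at G24h. AHG1, a phosphatase bound by DOG1, was called lower in h3.3ko at MS, with 118 ± 9.76 TPM in h3.3ko and 399 ± 19.8 TPM in Col (log2 fold change -1.75 ± 0.23). It was called higher at G24h, with 84.2 ± 10.2 TPM in h3.3ko and 10.7 ± 1.18 TPM in Col (2.86 ± 0.23). AHG3, the other phosphatase bound by DOG1, was called at MS alone (-1.38 ± 0.14). ABI5, the bZIP factor that carries abscisic acid responses in seeds, was lower in h3.3ko at MS (-1.60 ± 0.09) and higher from S24h onward, with 223 ± 23.6 TPM in h3.3ko and 34.6 ± 1.45 TPM in Col at S48h. ERF12, which represses DOG1 together with the corepressor TPL, was called higher in h3.3ko at G12h, with 98.2 ± 7.33 TPM in h3.3ko and 7.21 ± 0.676 TPM in Col (3.60 ± 0.08). The MADS-box gene AGL67 was at 22.4 ± 1.47 TPM in h3.3ko and 1.09 ± 0.313 TPM in Col at G24h (3.50 ± 0.08). HUB2, the partner of HUB1 in H2B ubiquitination, was not called at any time point (-0.27 to 0.40).

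Of the relatives outside the 8 genes, few were expressed. The DOG1-domain gene AT3G14880 was called higher in h3.3ko from S24h onward, with 69.2 ± 0.666 TPM in h3.3ko and 10.4 ± 1.51 TPM in Col at S48h (2.63 ± 0.08) and 192 ± 11.9 TPM in h3.3ko and 32.3 ± 1.73 TPM in Col at G24h (2.54 ± 0.08). The DOG1-domain gene ZW2 (AT1G58330) went the other way. It was called lower in h3.3ko at S24h and S48h. It had no read in any h3.3ko library from S12h to G24h, against 2.08 ± 0.0399 TPM in Col at S48h. Of the PEBP relatives of MFT, BFT alone passed the filter, at 2.05 ± 0.469 TPM in h3.3ko and 0.0381 ± 0.0660 TPM in Col at S24h (1.54 ± 0.16), while FT, TSF, TFL1 and ATC were not tested.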

How the data were processed

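RNA of whole seeds was sequenced with a kit that keeps no strand. Per the labels and the study's methods, reads were trimmed with fastp 0.20.1, aligned to TAIR10 with HISAT2 2.1.10 and counted with HTSeq 0.11.2, and the submitters' processing notes also name DESeq2 1.26.0. The authors deposited 1 table of TPM for 27655 genes in 36 libraries. TPM steps fitted whole reads (within 0.01) when the gene span of the RefSeq annotation, introns included, was taken as the length: 99.96% to 100% of values under 50 reads in 27445 nuclear genes. All values of the 8 genes came out whole. The level of 3 reads was 0.245 to 0.370 TPM for a gene of 1 kb. Groups came from the labels. Genes with at least 1 TPM in at least 3 libraries were fitted as log2(TPM + 1) with limma 3.58.1 (trend, 12 group means, R 4.3.3), and calls needed a Benjamini-Hochberg adjusted p under 0.05 and a 2-fold change. Likeness was Pearson's r over the 12 group means of genes with a group mean of at least 5 TPM. The fit was also run on simulated data with 200 changed genes. The outcome of that run is not given here and lends no weight to the calls. The 8 genes and all lists were chosen with earlier results of these data known. Named from the dormancy list were, besides HUB2, the 3 called genes per direction with the largest change, and from the relatives those that passed the filter. Same-numbered libraries deviated together at S12h (r = 0.25, 0.28 and 0.19) and not in all 3 pairs at any other time point, so the replicate numbers were taken to pair libraries at S12h only, by the data and not by the labels. Alternatives changed the pseudocount, the filter, the scaling, the block, the groups in the fit, the model and each library.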

Additional observations from a re-analysis of the deposited data

Results flagged for a closer look

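With TPM, the course since the mature seed differed between the genotypes at 1 or more intervals for 7 of the 8 genes. Among all 19052 genes tested, 3027 were called at S12h, 6927 at S48h and 8506 at G24h against MS. How many of all genes were called at 1 or more intervals was not counted. The test was limma's test of the genotype-by-time interaction, given here as the log2 change in h3.3ko minus that in Col. At S12h against MS this held for DOG1 (1.34), DOGL2 (1.65), DOGL4 (1.85) and RDO5 (-1.78). At S48h against MS it held for DOG1 (5.97), DOGL1 (3.14), DOGL2 (1.30), DOGL3 (-1.62), DOGL4 (5.25) and MFT (3.77). At G24h against MS it held for DOG1 (2.36), DOGL1 (3.96), DOGL2 (4.87), DOGL4 (5.81), RDO5 (3.15) and MFT (5.60). The 2 negative values belong to genes that increased in both genotypes over the interval, with a smaller log2 change in h3.3ko. DOGL3 started from a higher level in h3.3ko at MS.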

How the results depend on the processing

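The 24 calls higher in h3.3ko stood at 24 under every alternative, including voom on recovered reads and each library left out in turn. Calls lower in h3.3ko were 8, against 5 under quantile normalization, 5 without storage protein genes, 6 under median-of-ratios scaling and 7 with voom, and 7 to 9 with a library left out. The calls lost were those of DOGL1 at MS or S12h (-0.99 without h3.3ko replicate 3 of S12h), RDO5 at S12h and HUB1 at S12h. Over time in h3.3ko, 14 tests were called higher and 3 lower. These were 7 and 10 under median-of-ratios scaling and 9 and 8 under quantile normalization, with 5 lower both without storage protein genes and with voom, and 13 to 14 higher and 3 to 4 lower with a library left out. Of changes from MS to G24h, MFT in h3.3ko was 0.24 and became -1.10 under median-of-ratios scaling. HUB1 was 1.15 in h3.3ko and 0.29 in Col, and became -0.082 in h3.3ko and -1.15 in Col under median-of-ratios scaling and -0.15 in h3.3ko and -1.41 in Col under quantile normalization. The median gene moved with the scaling in the same fits (1.01 in h3.3ko and 1.39 in Col with TPM), and the cause was not tested further. The interaction of DOGL3 at G24h, 0.83 and not called, was 2.59 and called with a pseudocount of 0.1, and was 3.04 with voom. That of HUB1 at G24h, 0.87 and not called, passed the threshold of 1 under other processing. It was 1.07 under median-of-ratios scaling, 1.26 under quantile normalization and 1.20 with voom. With the replicate block, which pairs same-numbered libraries, the counts were again 24 higher and 8 lower between genotypes and 14 higher and 2 lower for the interaction, and no call of a member changed.

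Counts over all genes moved more. At MS 3658 genes were called between genotypes, against 6543 with a pseudocount of 0.1 and 7026 with voom. At G24h 7433 were called, against 4753 with a mean of at least 5 TPM required. For the interaction, S12h had 3027, against 4586 with a pseudocount of 0.1 and 4600 with voom, and G24h had 8506, against 5572 with the stricter filter. Within genotypes, the larger moves were G24h in h3.3ko (10275, against 6560 under median-of-ratios scaling and 5783 under quantile normalization), S48h in h3.3ko (10325, against 6670 under quantile normalization) and S12h in Col (7503, against 4686 under quantile normalization). The share of genotype calls that were higher in h3.3ko was 44.5% at MS, 42.8% at S12h and 24.7% at G24h, against 55.1%, 59.7% and 36.3% under median-of-ratios scaling and 72.4%, 64.6% and 35.0% without storage protein genes. At S24h and S48h it was 50.02% and 50.08%, against 64.0% and 60.3% without storage protein genes and 61.6% and 60.8% with voom, which also gave 58.6% at S12h, 47.1% at G12h (36.7% with TPM) and 35.1% at G24h. Quantile normalization gave 47.0% at G12h, 49.3% at G24h and, for the interaction at G24h, 50.6% (30.0% with TPM). Within genotypes 82.3% to 97.3% of calls were increases, against 47.5% to 58.9% under median-of-ratios scaling and 49.0% to 56.1% under quantile normalization. Depth limited the Col values of DOG1, DOGL1, DOGL2 and DOGL3 at G24h, which rest on 0 to 4 reads per library.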
